A study of Mus musculus with 6 samples.

Results

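The CCN genes encode 6 secreted matricellular proteins, and all 6 (Ccn1 to Ccn6) were measured among the 20239 named genes of a mouse pericyte array series. The members were found by gene symbol, and each had 1 probe set. Older names of the family are Cyr61 (Ccn1), Ctgf (Ccn2), Nov (Ccn3), Wisp1 (Ccn4), Wisp2 (Ccn5) and Wisp3 (Ccn6). The cells were pericytes, the mural cells of capillaries, isolated from the C57BL/6 background. Of 6 arrays of total RNA, 3 came from cultures that received 100 ng/ml of PDGF-BB, the homodimer of the platelet-derived growth factor B chain, for 5 days and 3 from cultures under the control treatment for 5 days, whose content is not given in the sources used here. The labels number the arrays 1 to 3 in each group and do not say whether they came from separate isolations. The p-values therefore rest on the spread among 6 arrays, part of which may be technical.

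CCN proteins sit in the extracellular matrix without building it. They are assembled from an insulin-like growth factor binding protein (IGFBP) domain, a von Willebrand factor C domain, a thrombospondin type 1 repeat and, in all but Ccn5, a C-terminal cystine knot. They act by binding integrins, proteoglycans, LDL receptor-related proteins and growth factors. Ccn1 and Ccn2 are textbook target genes of the Hippo effectors YAP and TAZ with their TEAD partners, and of serum response factor (SRF) with its actin-sensing cofactors. Ccn2 is also a classical target of transforming growth factor beta (TGF-β), and Ccn4 and Ccn5 were found as genes induced by Wnt1.

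Of the 6 members, RefSeq's promoter table held Ccn1 and Ccn6, and the Ccn1 sequence is shown because Ccn1 fell with PDGF-BB and is a textbook TEAD target gene. The 250 bases before the Ccn1 gene start (RefSeq, GRCm38.p6, chr3:145649986-145650235, minus strand) read 5′ to 3′ with the TEAD core motif GGAATG, which lies on the opposite strand here, and the motif TATAAA in capitals.
Ccn1: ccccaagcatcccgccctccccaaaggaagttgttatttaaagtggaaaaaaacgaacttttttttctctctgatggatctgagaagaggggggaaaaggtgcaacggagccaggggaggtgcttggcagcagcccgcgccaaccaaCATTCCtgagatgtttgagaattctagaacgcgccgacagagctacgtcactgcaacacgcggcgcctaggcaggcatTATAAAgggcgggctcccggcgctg
The TEAD core lay 103 to 98 bases before the gene start, and the TATAAA motif 25 to 20 bases before it. Searched on both strands, GGAATG occurred in 12.6% and TATAAA in 12.4% of 32851 mouse promoters of the same length. The CArG box, the element bound by SRF, had no match in these 250 bases and was found in 1.47% of the promoters. In the 250 bases before the Ccn6 gene start, none of these 3 motifs had a match. The motifs do not overlap each other, and a match describes the letters only.

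Expression of the family changed in both directions. With PDGF-BB, Ccn1, Ccn2 and Ccn5 fell and Ccn4 rose, while Ccn3 and Ccn6 did not pass the test (limma's moderated test, adjusted p under 0.05 after Benjamini-Hochberg adjustment over all 20239 genes). Thus 4 of 6 members were called, 1 higher and 3 lower, where 21.5% of all genes were called, 10.1% higher and 11.4% lower. This share includes dim genes. A separate fit left out genes under the 50th percentile of mean level and had its own Benjamini-Hochberg adjustment. It called 3913 genes, 1946 higher and 1967 lower, against 4342, 2037 and 2305 in the fit of all genes. The share among brighter genes, which include the called members, is therefore higher than 21.5%, and higher in each direction. The gene lists below are set beside the shares of all genes, which are too low a background for lists of bright genes. The median log2 change of the 6 members was -0.40, against -0.02 for all genes. Values are deposited log2 expression values, and log2 changes are given as PDGF-BB less control.

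Ccn1, an immediate-early gene product that promotes adhesion and angiogenesis through integrins, measured 12.44, 11.91 and 12.48 on PDGF-BB arrays 1, 2 and 3, against 13.23, 13.19 and 13.23 on control arrays 1, 2 and 3. The control arrays lay within 0.04 of each other, and every PDGF-BB array lay at least 0.71 below them, with PDGF-BB array 2 the lowest. Ccn1 averaged 12.27 ± 0.32 with PDGF-BB and 13.21 ± 0.02 in control (SD, n = 3 each), a 1.92-fold lower expression (log2 change -0.94, 95% interval -1.29 to -0.59, adjusted p = 0.0057, limma).

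Ccn2, connective tissue growth factor, a profibrotic matrix regulator, measured 11.30, 10.46 and 11.68 on PDGF-BB arrays 1, 2 and 3, against 12.72, 12.58 and 12.71 on control arrays 1, 2 and 3. Again the groups did not overlap, the control arrays were close together and PDGF-BB array 2 was the lowest. Its means were 11.15 ± 0.63 with PDGF-BB and 12.67 ± 0.08 in control, a 2.87-fold lower expression (log2 change -1.52, 95% interval -2.18 to -0.86, adjusted p = 0.0097, limma). The PDGF-BB arrays thus spread over 1.23 log2 units for Ccn2 and 0.57 for Ccn1, and the control arrays over 0.13 and 0.04. Without PDGF-BB array 2, the changes were -1.18 for Ccn2 and -0.76 for Ccn1, and both remained called (adjusted p = 0.0051 and 0.0033, limma).

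Ccn2 changed more than Ccn1 in each same-numbered pair of arrays. The within-array difference Ccn1 minus Ccn2 averaged 1.13 ± 0.33 with PDGF-BB and 0.54 ± 0.05 in control (SD, n = 3 each), so the 2 changes differed by 0.58 log2 units. Its exact two-sided permutation p was 0.1, the smallest that 3 arrays against 3 can give, so this comparison cannot reach 0.05.

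Ccn5, the member that lacks the cystine knot and is known as a growth inhibitor of vascular smooth muscle cells, measured 9.06, 9.06 and 9.04 on PDGF-BB arrays 1, 2 and 3, against 10.64, 10.98 and 10.83 on control arrays 1, 2 and 3. The lowest control array stood 1.58 above the highest PDGF-BB array, the widest gap in the family. Means were 9.06 ± 0.01 with PDGF-BB and 10.82 ± 0.17 in control, a 3.39-fold lower expression (log2 change -1.76, 95% interval -1.97 to -1.55, adjusted p = 3.1e-04, limma). By p-value it ranked 12 among the 20239 genes, and 0.277% of genes had a lower log2 change. The spread was the reverse of that of Ccn1 and Ccn2, since here the PDGF-BB arrays agreed to within 0.02 and the control arrays ranged over 0.34.

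Ccn4, a secreted promoter of mesenchymal cell growth and the only member that rose, measured 11.76, 11.67 and 12.01 on PDGF-BB arrays 1, 2 and 3, against 11.28, 10.57 and 10.84 on control arrays 1, 2 and 3. All PDGF-BB arrays were above all control arrays, although control array 1 came within 0.39 of the lowest of them. The means were 11.81 ± 0.17 with PDGF-BB and 10.90 ± 0.36 in control, a 1.88-fold higher expression (log2 change 0.91, 95% interval 0.49 to 1.34, adjusted p = 0.013, limma), and 2.51% of genes had a higher change. Ccn4 and Ccn5, both named for Wnt1 induction, therefore moved in opposite directions. Their within-array difference, Ccn4 minus Ccn5, averaged 2.76 ± 0.19 with PDGF-BB and 0.08 ± 0.52 in control, a difference of 2.68 between the 2 changes (exact two-sided permutation p = 0.1, the smallest possible with 3 against 3).

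Ccn3, an antiproliferative member that binds Notch1, measured 9.76, 10.08 and 9.47 on PDGF-BB arrays 1, 2 and 3, against 9.65, 9.33 and 9.44 on control arrays 1, 2 and 3. The groups overlapped, because PDGF-BB array 3 lay under control array 1. The estimated log2 change of 0.30 had a 95% interval of -0.08 to 0.67 (adjusted p = 0.25, limma), which leaves room for a rise of over 0.5. PDGF-BB array 2, lowest for Ccn1 and Ccn2, was the highest for Ccn3, and without it the change was 0.14 (adjusted p = 0.57, limma).

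Ccn6, whose human counterpart is mutated in a skeletal dysplasia, measured 7.32, 7.24 and 7.16 on PDGF-BB arrays 1, 2 and 3, against 7.06, 7.10 and 7.16 on control arrays 1, 2 and 3. All 6 values lay under 7.33, a level taken as background, so no fold is given. That level is the 90th percentile of the means of 19 genes of erythroid, mast and lymphoid cells, which were assumed to be absent. The groups were separated by only 0.007 log2 units (log2 change 0.13, 95% interval -0.02 to 0.29, adjusted p = 0.20, limma), and a change in a probe set this dim may go unseen. With Ccn6, 5 of the 6 members had groups that did not overlap, 3 with PDGF-BB lower and 2 with PDGF-BB higher, where 37.6% of all genes had such groups, 20.6% lower and 16.9% higher.

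**Figure D1:**
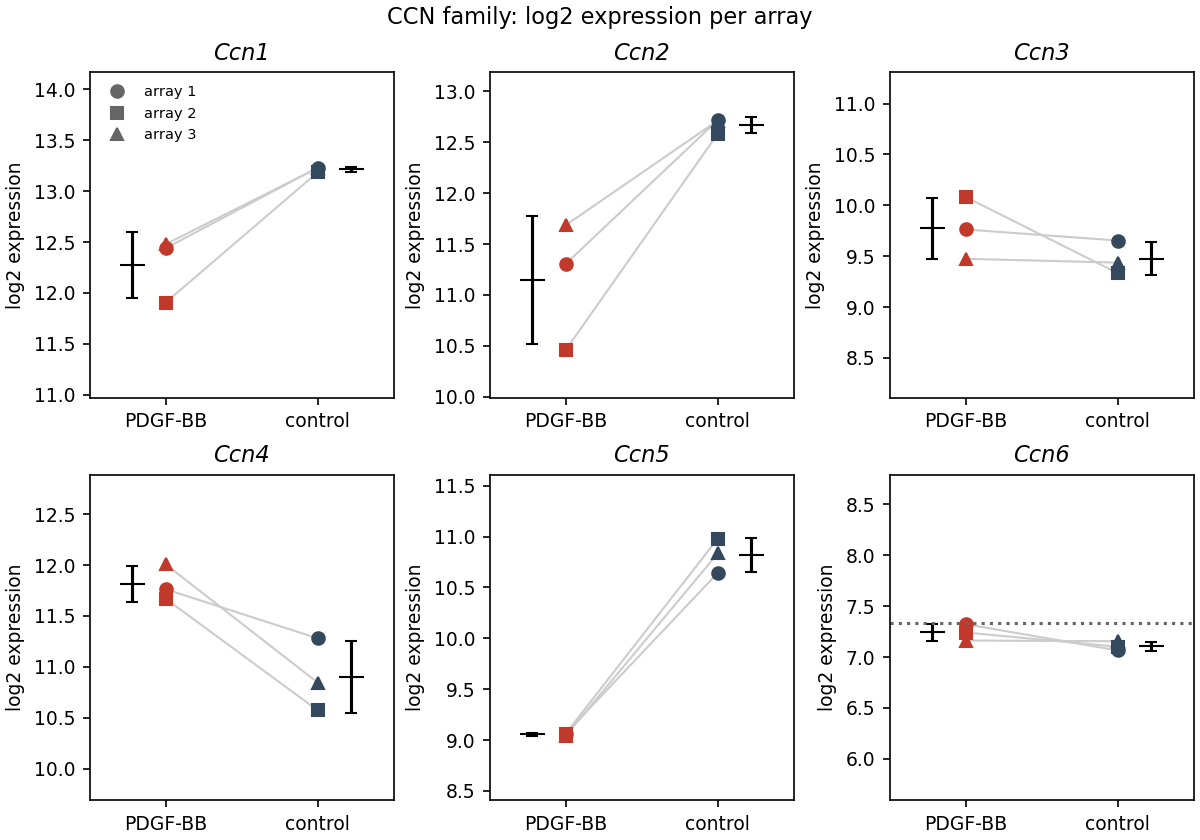
Log2 expression of each CCN gene on each array, PDGF-BB left (red) and control right (dark blue). Marker shape gives the array number, grey lines join same-numbered arrays, bars are the mean ± SD of 3 arrays, every panel spans the same range, and the dotted line in the Ccn6 panel is the level of 7.33 taken as background. The PDGF-BB arrays lie below all control arrays for Ccn1, Ccn2 and Ccn5 and above them for Ccn4, and all Ccn6 values lie under the dotted line.

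The differences between same-numbered arrays had the same sign in all 3 pairs for every member. The share of all genes with 1 sign in all 3 pairs was not counted, so this is not a result about the members. The differences were -0.79, -1.28 and -0.75 for Ccn1 in pairs 1, 2 and 3, and -1.41, -2.12 and -1.03 for Ccn2. For Ccn5 they were -1.58, -1.91 and -1.79, and for Ccn4 0.48, 1.10 and 1.16. Pair 2 thus held the largest differences of Ccn1, Ccn2 and Ccn5, while pair 1 held the smallest of Ccn4 and Ccn5. Ccn3 differed by 0.11, 0.75 and 0.04, so that its mean change came mostly from pair 2. Ccn6, under background on all arrays, differed by 0.26, 0.14 and 0.007.

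**Figure D2:**
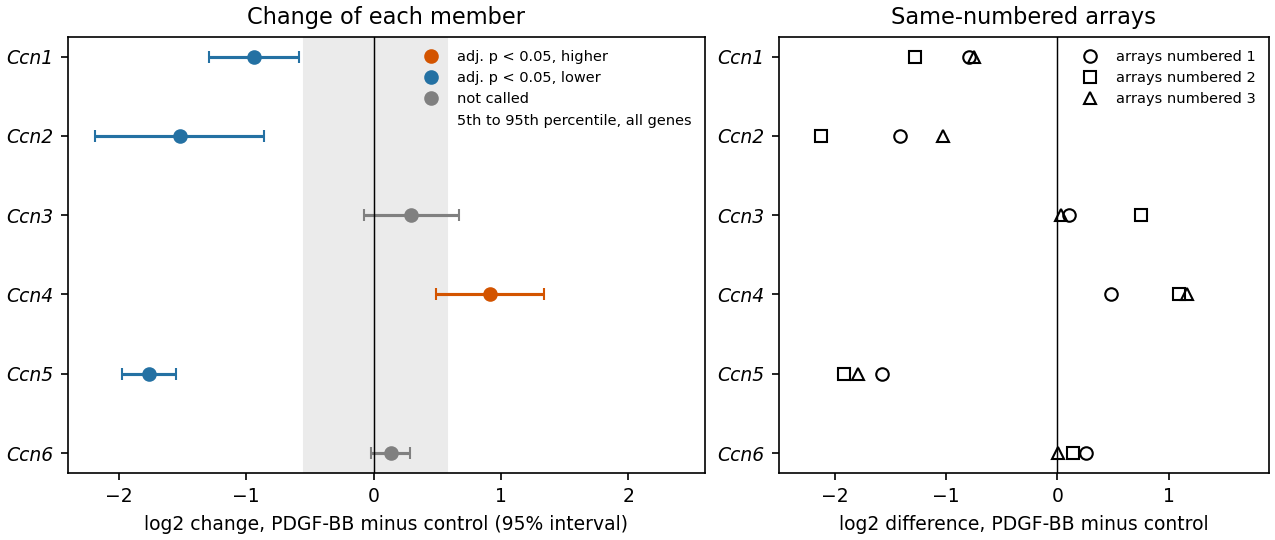
Left, log2 change (PDGF-BB minus control) of each CCN gene with its 95% interval from limma; the grey band holds the 5th to 95th percentile of all genes, from -0.54 to 0.58. Right, the differences between the arrays numbered 1, 2 and 3. The intervals of Ccn1, Ccn2 and Ccn5 lie below the band, that of Ccn4 reaches into it at 0.49, and the differences of pair 2 stand apart for Ccn1, Ccn2 and Ccn3.

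The labelled cell type was checked against marker genes. Pdgfrb, the PDGF receptor of pericytes, was bright on all arrays, at 12.85 ± 0.09 with PDGF-BB and 12.98 ± 0.11 in control, whereas 4 of 12 pericyte markers, Des, Abcc9, Vtn and Higd1b, had means under the background level of 7.33. Rgs5 and Kcnj8 lay little above it, at 7.71 and 7.63 with PDGF-BB and 7.77 and 7.85 in control. Like Pdgfrb, fibroblast genes were bright, with an array median over the 9 measured of 12.43 to 12.74 with PDGF-BB and 12.37 to 12.51 in control, and 2 of them, Lum and Dpt, rose. Pdgfra, on the fibroblast list, measured 12.82 with PDGF-BB and 12.90 in control. Rgs5, Kcnj8 and Pdgfra were chosen after their values were seen. Of the pericyte markers 1 rose (Anpep) and 1 fell (Cd248). Of the markers of other lineages, 6 of 10 endothelial, 8 of 10 macrophage, 3 of 7 epithelial and 3 of 9 chondrocyte and osteoblast genes had means under that level. Among the endothelial and macrophage genes Plvap and Mpeg1 rose and Lyz2 and Cd68 fell. Lyz2 lay under background in both groups (5.80 with PDGF-BB and 6.29 in control) and Mpeg1 in control (6.24), while Cd68 was above it at 8.96 with PDGF-BB and 9.39 in control. With 21.5% of all genes called, these few calls are not a result about the pericyte, fibroblast, endothelial or macrophage markers as groups. Sox9, the chondrocyte transcription factor, was bright and rose (11.70 with PDGF-BB and 11.01 in control, adjusted p = 0.0081, limma), the only 1 of its list of 9 to be called. Of 7 epithelial markers 0 were called by limma, and 0 had p under 0.05 before adjustment. In bulk RNA fewer cells of a type and less RNA per cell cannot be told apart, and the part of these marker changes in the CCN results was not tested.

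Genes that share the regulators of Ccn1 and Ccn2 were mostly lower with PDGF-BB. Of 22 YAP/TAZ target genes other than the CCN members, 14 fell and 2 rose, where 11.4% of all genes fell and 10.1% rose. Their median log2 change was -0.46 against -0.02 for all genes, and the count of 2 higher is near the background. Amotl2, an angiomotin that binds YAP, was 4.11-fold lower (9.68 ± 0.30 with PDGF-BB and 11.72 ± 0.20 in control, log2 change -2.04, adjusted p = 8.6e-04, limma). Ccdc80, a secreted matrix protein, was 1.89-fold lower (11.73 ± 0.03 and 12.64 ± 0.10). The targets Lats2, a Hippo kinase, and Tgfb2, a TGF-β ligand, both chosen after their values were seen, were 1.41-fold and 2.69-fold lower. Fjx1, a secreted growth regulator, rose 1.67-fold and Dock5, a Rac activator, 1.36-fold. The targets Ankrd1 and Axl, chosen after their values were seen, did not pass (log2 changes -0.07 and 0.06, adjusted p = 0.91 and 0.52, limma). Their 95% intervals were -0.76 to 0.62 and -0.07 to 0.19. Without PDGF-BB array 1 or control array 2, 9 rather than 14 of the targets fell, and without PDGF-BB array 1 or 2 or control array 2 or 3, 1 rather than 2 rose, as Dock5 lost its call (adjusted p = 0.058 to 0.075, limma).

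Cytoskeletal targets of SRF showed the same direction. Of 22 measured, 13 fell and 1 rose, where 11.4% of all genes fell and 10.1% rose, and their median log2 change was -0.53. The other 8 were not called, among them Actb, Myh9 and Tpm4 (log2 changes -0.06, -0.07 and 0.12), named after their values were seen. Vcl, vinculin of focal adhesions, was 1.55-fold lower (12.21 ± 0.10 with PDGF-BB and 12.85 ± 0.01 in control), and Lmod1, an actin filament nucleator, 2.01-fold lower. Tagln and Cnn1, the smooth muscle proteins transgelin and calponin, were 4.22-fold and 5.14-fold lower. They were the largest falls of the list and were chosen after their values were seen. Tagln2, a non-muscle relative of Tagln, rose 1.35-fold. Its call was lost when any 1 PDGF-BB array, or control array 2 or 3, was left out (adjusted p = 0.065 to 0.097, limma), which left 0 of these targets higher.

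The regulators themselves were lower in 9 of 20 cases and higher in 1, where 11.4% of all genes were lower and 10.1% higher. All 20 had means of 8.75 or more, and among brighter genes both shares are higher. The median log2 change of the regulators was -0.12. The list mixes Hippo kinases such as Lats2 with the factors they act on, so its counts have no single expected direction. Vgll3 and Vgll4, cofactors of TEAD proteins, were 1.75-fold and 1.83-fold lower, with means of 12.12 ± 0.23 and 10.91 ± 0.22 with PDGF-BB, against 12.92 ± 0.04 and 11.79 ± 0.13 in control. Srf itself and Mrtfa, its actin-sensing cofactor, both chosen after their values were seen, were 1.41-fold and 1.69-fold lower. Yap1 had a log2 change of -0.25 (adjusted p = 0.035, limma). Its relative Wwtr1, which encodes TAZ, had one of 0.04 (95% interval -0.13 to 0.21) and Tead1 one of -0.16 (95% interval -0.31 to 0.00). Tead2 and Tead3 were 1.41-fold and 1.26-fold lower (adjusted p = 0.0090 and 0.012, limma), while Tead4 did not pass (log2 change -0.03, adjusted p = 0.89, limma). These genes were all chosen after their values were seen. Yap1 did not pass when any 1 PDGF-BB array, or control array 1 or 3, was left out (adjusted p = 0.060 to 0.12, limma). Stk4, a Hippo kinase, rose 1.19-fold and lost that call with a replicate block (adjusted p = 0.083, limma), with an intensity trend and robust eBayes (0.064) and whichever of the 6 arrays was left out (0.050 to 0.14), which left 0 regulators higher.

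Of 21 TGF-β target genes other than Ccn2, 8 were lower and 3 higher, with a median log2 change of -0.33. Among all genes 11.4% were lower and 10.1% higher, so the count of 3 higher is near the background and is not a result about the list. Ltbp2, a microfibril-associated protein, was 2.12-fold lower (11.00 ± 0.20 with PDGF-BB and 12.09 ± 0.32 in control), and Tgfbi, a secreted adhesion protein, 1.78-fold lower. Smad7, the inhibitory SMAD, chosen after its value was seen, was 1.73-fold lower. Tgfb1, the ligand, rose 1.48-fold, Timp1, a metalloproteinase inhibitor, 1.40-fold and Col3a1, a fibrillar collagen named because it completes the 3, 1.48-fold. Without PDGF-BB array 2 or 3 or control array 2 or 3, 1 rather than 3 rose. The Timp1 call was lost when any 1 array except control array 1 was left out (adjusted p = 0.061 to 0.12, limma). The Col3a1 call was lost with the replicate block (adjusted p = 0.054, limma) and when any 1 array except PDGF-BB array 1 was left out (0.069 to 0.13).

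Wnt/β-catenin targets, the class after which Ccn4 and Ccn5 were named, were called in 4 of 15 cases, 3 higher and 1 lower, and their median log2 change was -0.01. With 21.5% of all genes called, this count is near the background and is not a result about the list. Ccnd1, cyclin D1, rose 1.70-fold (12.79 ± 0.09 with PDGF-BB and 12.03 ± 0.12 in control) and Myc, the growth-promoting transcription factor, 1.70-fold. Ascl2, a transcription factor named because it completes the 3, had a log2 change of 0.28 with both means under background, and lost its call without PDGF-BB array 1 or 2 or control array 1 or 2 (adjusted p = 0.057 to 0.075, limma). Fgf18, a fibroblast growth factor, was 3.31-fold lower. Axin2, the usual feedback target of the pathway and a gene chosen after its value was seen, did not pass (log2 change -0.18, 95% interval -0.39 to 0.03, adjusted p = 0.23, limma).

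**Figure D3:**
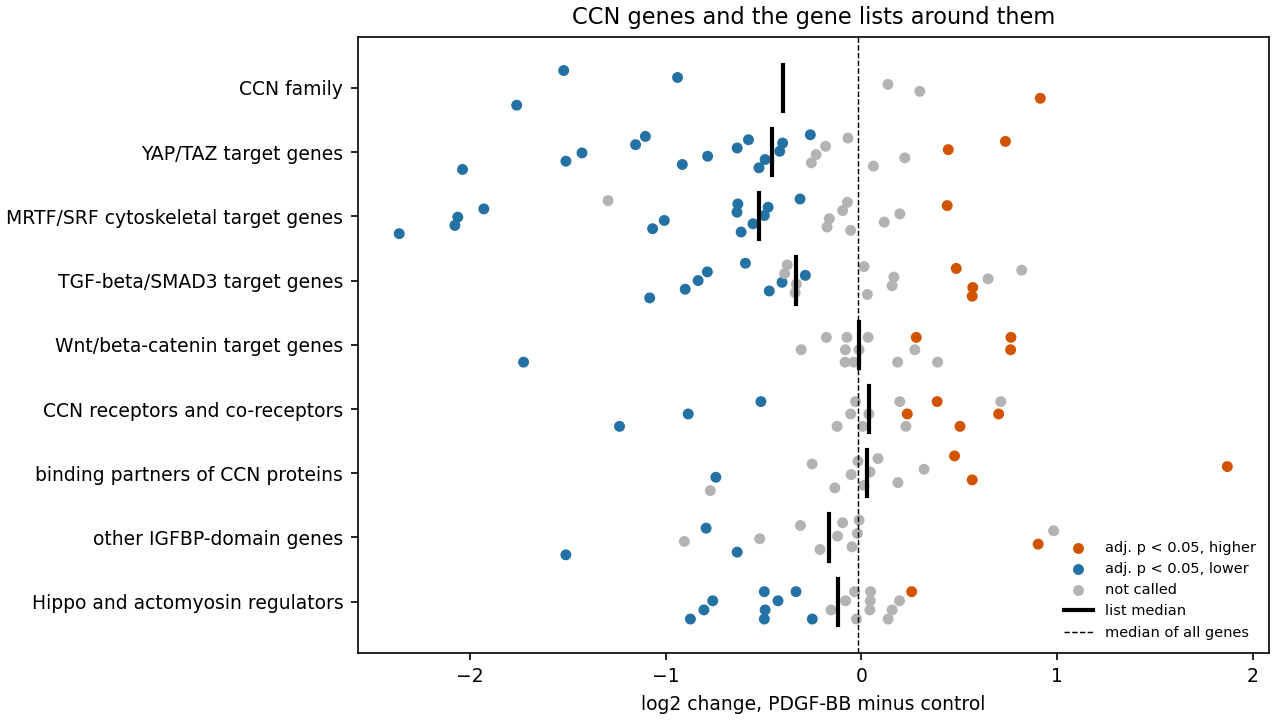
Log2 change (PDGF-BB minus control) of each CCN gene and of each gene in 8 lists, 1 point a gene, orange where higher and blue where lower at an adjusted p under 0.05 in limma and grey otherwise; vertical position within a list has no meaning. Thick bars are list medians, at -0.40 for the CCN family, -0.46 for YAP/TAZ targets and -0.53 for SRF targets, and the dashed line is the median of all genes, at -0.02.

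Some receptors of CCN proteins were called, in both directions. Of 15 measured, 4 rose and 3 fell, where 10.1% of all genes were higher and 11.4% lower. Whether the list as a group differs from these shares was not tested. Itgb3, the β3 integrin subunit that pairs with αv to bind Ccn1 and Ccn2, rose 1.63-fold (9.51 ± 0.06 with PDGF-BB and 8.81 ± 0.15 in control), whereas Itgb5, which also pairs with αv, was 1.43-fold lower. Itgb2, the β2 subunit of leukocyte integrins, rose 1.31-fold at a low level (8.35 with PDGF-BB and 7.96 in control). Cd3e, a lymphoid gene assumed to be absent, measured 8.22 with PDGF-BB and 8.27 in control. Near that level with PDGF-BB were Fgf18 (8.38), Tgfb2 (8.26), Fgfr2 (8.16), Lmod1 (8.09), Tagln (8.15) and Cnn1 (8.44). Whether background limits their folds was not tested. Itgb1, the subunit shared by most integrins, chosen with its value known, did not pass (log2 change 0.04, 95% interval -0.09 to 0.17). Lrp6, the Wnt co-receptor that Ccn2 binds, was 1.85-fold lower (10.96 ± 0.26 with PDGF-BB and 11.84 ± 0.22 in control) and Fgfr2, a fibroblast growth factor receptor, 2.36-fold lower. Notch1, which Ccn3 binds, rose 1.42-fold and Igf2r, the mannose 6-phosphate receptor, 1.18-fold. Itgb5, Notch1 and Igf2r complete the counts and lay outside the naming rule. Without PDGF-BB array 1 or 3 or control array 2, 2 rather than 4 receptors rose, and calls were lost for Itgb5 without PDGF-BB array 2 or 3 or control array 3 (adjusted p = 0.056 to 0.061, limma), for Notch1 when control array 2 or any 1 PDGF-BB array was left out (0.061 to 0.12) or with quantile normalization repeated (0.055), and for Igf2r when any 1 array except PDGF-BB array 2 was left out (0.059 to 0.080).

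Among 14 extracellular partners that CCN proteins bind, 3 rose and 1 fell, where 21.5% of all genes were called, so these few calls are not a result about the partners as a group. Besides Tgfb1, Hspg2, the basement membrane proteoglycan perlecan, rose 1.39-fold (12.10 ± 0.15 with PDGF-BB and 11.62 ± 0.08 in control), and Bmp4, a bone morphogenetic protein that Ccn2 sequesters, was 1.68-fold lower. Bmp2, its relative, named because it completes the 3, measured 10.49 ± 0.99 with PDGF-BB and 8.62 ± 0.48 in control (log2 change 1.87, 95% interval 0.73 to 3.01), and lost its call with an intensity trend and robust eBayes (adjusted p = 0.064, limma) and when PDGF-BB array 1 or any 1 control array was left out (0.065 to 0.083). With the replicate block, and without PDGF-BB array 2, 2 rather than 1 of the partners fell.

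Other genes with an IGFBP domain were called higher in 1 and lower in 3 of 14 cases, with a median log2 change of -0.17. Against the 10.1% higher and 11.4% lower among all genes, these few calls are not a result about the domain family. Crim1, a transmembrane antagonist of bone morphogenetic proteins and also a YAP/TAZ target, was 2.85-fold lower (10.80 ± 0.34 with PDGF-BB and 12.31 ± 0.08 in control), and Igfbp6, which prefers insulin-like growth factor 2, 1.73-fold lower. Igfbp3, the main IGF carrier of plasma, named because it completes the 3, was 1.55-fold lower, a call lost without PDGF-BB array 2 or 3 or control array 1 or 2 (adjusted p = 0.098 to 0.12, limma). Igfbp5, an IGF-binding protein of the matrix, rose 1.87-fold and lost its call with an intensity trend and robust eBayes (adjusted p = 0.053, limma) and when PDGF-BB array 3 or any 1 control array was left out (0.058 to 0.10), leaving 0 higher. With the replicate block 5 rather than 3 fell.

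The genes whose levels followed each called CCN gene most closely were sought by the root mean square (RMS) difference of gene-centred log2 values over the 6 arrays. The other members were left out, as were gene-model names (Gm or LOC plus digits, names ending in Rik, and accession-like names). Choosing genes by likeness fixes the direction and approximate size of their changes, which are given as a description. For Ccn5 they were Vegfd, a lymphangiogenic growth factor, at an RMS difference of 0.065 log2 units, Tmem178, a transmembrane protein, at 0.068, and Stard10, a lipid transfer protein, at 0.088. For Ccn1 they were H3f3a, a histone H3.3 gene, at 0.072, Nbl1, a secreted antagonist of bone morphogenetic proteins, at 0.073, and Rnf207, a RING finger protein, at 0.073. Their log2 changes were -1.77, -1.82 and -1.88 in the Ccn5 set and -0.83, -0.95 and -0.92 in the Ccn1 set.

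Ccn2 had less close matches, S1pr1, a sphingosine 1-phosphate receptor, at 0.15, Ak5, an adenylate kinase, at 0.17, and Pkia, an inhibitor of protein kinase A, at 0.21. PDGF-BB array 2 was the lowest array of each, as the choice by likeness to Ccn2 favours, with values of 8.88 for S1pr1, 9.18 for Ak5 and 8.76 for Pkia. For Ccn4 the nearest were Slc20a1, a phosphate transporter, at 0.095, Adgrg6, an adhesion receptor, at 0.099, and Lrig1, a brake on ErbB receptors, at 0.10, with folds of 1.87, 2.01 and 2.02. The S1pr1 call was lost without control array 3 (adjusted p = 0.055, limma) and the Adgrg6 call without PDGF-BB array 1 or 3 or control array 2 or 3 (0.055 to 0.066).

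**Figure D4:**
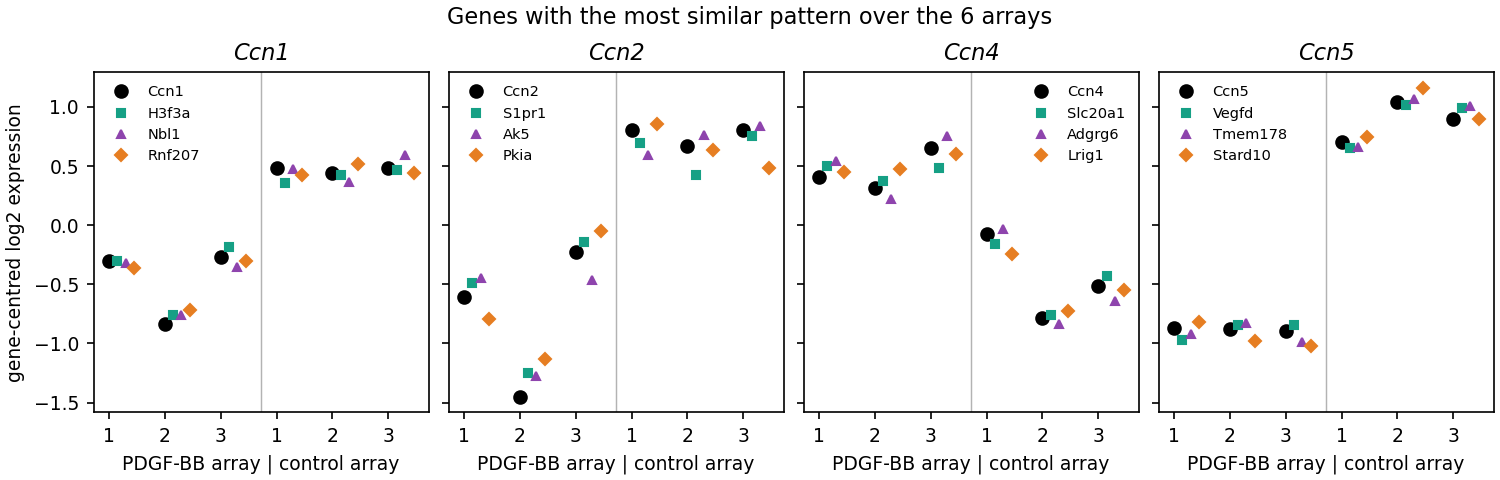
Gene-centred log2 expression (value minus the gene's mean over 6 arrays) of each called CCN gene (black circles) and its 3 nearest genes (coloured), with PDGF-BB arrays 1 to 3 left of the line and control arrays 1 to 3 right of it. Gene-model names were left out of the nearest genes. PDGF-BB array 2 is the lowest array in the Ccn1 and Ccn2 panels, and the PDGF-BB points of Ccn5 lie level, within 0.02 of each other.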

How the data were processed

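The deposited table holds log2 values of 21225 probe sets on 6 one-colour arrays, made by the authors with RMA (background correction, quantile normalization, probe set summary) per the submitters' processing notes; the sources used here give no software, probe set definition or filter. GEO's platform annotation gave 20239 probe sets 1 symbol each, all found in RefSeq, and none several; 986 (4.65%) are unnamed. The deposited values were fitted with limma 3.58.1 (R 4.3.3; lmFit, eBayes) on all 6 arrays, group as the only factor, no filter, two-sided, Benjamini-Hochberg over 20239 genes, and the fit was tested on simulated data. A fold is 2 raised to the log2 change. Arrays give no read depth; 3 per group limit the precision, and RMA hides changes in total RNA.

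The members, the gene lists (textbook knowledge; some list genes are not analysed here) and tests were chosen with earlier results of these data known. Lists overlap. Named are the 6 members, up to 4 called genes of the smallest p per list (2 in each direction where both occur), the 3 nearest genes per called member, and others marked as chosen after their values were seen. Gene-model names were not eligible as nearest genes.

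Array medians were 8.43 to 8.46, and arrays correlated across genes at 0.994 to 0.996 within groups and 0.973 to 0.986 between them. Deviations from group means correlated at 0.25, 0.32 and 0.25 for same-numbered arrays and -0.28 to 0.01 otherwise, so arrays were treated as paired by number in the blocked fit; what a number shares is not given. Alternatives were a replicate block, repeated quantile normalization, median centring, a filter on dim genes, an intensity trend with robust eBayes, all probe sets, and leaving out each array.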

Additional observations from a re-analysis of the deposited data

How the results depend on the processing

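For the 6 CCN genes, 71 results were recomputed under the alternatives, and all 71 kept their direction and their side of the threshold; Ccn6 gave none under the filter on dim genes, which removed it. Leaving out 1 array, the log2 change ranged from -1.04 to -0.76 for Ccn1, -1.79 to -1.18 for Ccn2, 0.14 to 0.45 for Ccn3, 0.75 to 1.10 for Ccn4, -1.85 to -1.68 for Ccn5 and 0.09 to 0.17 for Ccn6; the adjusted p of the called 4 reached at most 0.021, 0.034, 0.045 and 0.0028 (Ccn1, Ccn2, Ccn4, Ccn5). With the replicate block the adjusted p was 0.0039 for Ccn1, 0.0043 for Ccn2, 0.0072 for Ccn4 and 4.05e-04 for Ccn5, and it was 0.22 for Ccn3 and 0.29 for Ccn6. Paired by number, the exact sign-flip p of both differences between members was 0.25, the smallest 3 pairs can give. Of all genes, 2305 fell; without 1 array 1514 to 2188 did, with 1514 when PDGF-BB array 2 and 1516 when PDGF-BB array 1 was left out. Of 192 list counts 34 moved by over 1.5 times. Among the 57 other named genes that were recomputed, 69 of 680 results lost their call. The direction reversed only for Wwtr1 without control array 2 (log2 change -0.011, adjusted p = 0.95, limma), whose change ranged from -0.011 to 0.092 when 1 array was left out. The cause was not tested. The median change of all genes was -0.02, or -0.01 with either rescaling.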
